A study of Mus musculus with 6 samples.

Results

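Genes of the leukotriene pathway and of phospholipid breakdown were measured in tumor-associated macrophages (TAMs) from melanomas that could or could not make prostaglandins. The set held 10 genes, taken by name from the 39179 rows of the deposited count table, and all 10 were found: Pla2g4a, Pla2g7, Pla2g15, Alox5, Alox5ap, Lta4h, Ltc4s, Alox15, Ptafr and Ephx1. TAMs were sorted by flow cytometry from subcutaneous melanomas grown in C57BL/6 hosts aged 8 weeks, which had been injected with a BRAF-mutant line. The Ptgs-competent group (3 libraries) came from wildtype tumor cells, and the Ptgs-deficient group (3 libraries) from tumor cells lacking Ptgs1 and Ptgs2, the genes of the cyclooxygenases COX-1 and COX-2. Only the tumor cells were edited, so both groups of macrophages carried intact cyclooxygenase genes. Each library pooled 10 tumors, and the sort kept live CD45+ CD11b+ F4/80+ cells that were negative for NK1.1 and Ly6G and negative or dim for Ly6C.

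Cytosolic phospholipase A2, encoded by Pla2g4a, frees arachidonic acid from membranes. Cyclooxygenases turn that acid into prostaglandins, while 5-lipoxygenase (Alox5), helped by its membrane partner FLAP (Alox5ap), turns it into leukotriene A4. That unstable product becomes leukotriene B4, an attractant for neutrophils, through Lta4h, or leukotriene C4, the parent of the cysteinyl leukotrienes that contract smooth muscle and open vessels, through Ltc4s. A related lipid, platelet-activating factor, acts through the receptor Ptafr and is destroyed by the secreted phospholipase Pla2g7. The question addressed was whether macrophages in tumors without cancer cell cyclooxygenase carried more or less of this machinery.

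Libraries, made from picogram amounts of RNA, held between 4431184 and 8760679 counts. The filter on low counts left 8793 genes, and libraries of the same group varied widely (common biological coefficient of variation 1.26). Of these genes, 6.62%, 21.6% and 19.6% were at 0 in Ptgs-competent replicates 1, 2 and 3. In Ptgs-deficient replicates 1, 2 and 3 the shares were 17.2%, 3.4% and 7.24%. All 8 macrophage markers checked (Ptprc, Itgam, Adgre1, Csf1r, Cd68, Fcgr1, Mertk and Lyz2) were detected in both groups. Their summed level was 10792, 10355 and 3858 CPM (counts scaled to library size by TMM) in Ptgs-competent replicates 1, 2 and 3, against 10229 to 14124 CPM in Ptgs-deficient TAMs. Ptgs-competent replicate 3 had the lowest sum, with 1070 counts of Csf1r against 8654 and 9498 in the other Ptgs-competent libraries. It was the lowest of the 6 libraries for 6 of the 8 markers, but not for Ptprc (153 CPM, against 114 in Ptgs-deficient replicate 3) or Mertk (89.9 CPM, against 84.1 in Ptgs-deficient replicate 2). Lyz2 made up most of the sum in every library. Itgam, Adgre1 and Fcgr1 were higher in Ptgs-deficient TAMs without overlap, as were 11% of all genes that passed the filter. Their means were 472, 214 and 166 CPM in Ptgs-competent TAMs, against 1052, 460 and 316 CPM. The other markers overlapped between groups. Whether the lipid genes followed these markers was not tested. In sorted bulk RNA, fewer cells expressing a gene and less RNA of it per cell cannot be told apart. Transcripts of the edited genes were present in both groups of sorted cells, at 65.6 ± 34.4 against 30.3 ± 11.4 CPM for Ptgs1 and 55.3 ± 43.8 against 27.7 ± 23.0 CPM for Ptgs2 (Ptgs-competent against Ptgs-deficient, SD, n = 3 each), with overlapping groups. Ptgs-competent replicate 3 held the highest value of both (100.2 CPM each), and without it the log2 fold change went from -1.11 to -0.62 for Ptgs1 and from -0.998 to -0.18 for Ptgs2. Among the fits with a library left out, the change was largest at -1.44 for Ptgs1 without Ptgs-competent replicate 1 and at -1.91 for Ptgs2 without Ptgs-deficient replicate 2.

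Of the 10 genes, 7 had a higher and 3 a lower fitted level in TAMs from Ptgs-deficient tumors, but 0 passed the study's thresholds (false discovery rate, FDR, of 0.05 and log2 fold change of 1.5) in the edgeR quasi-likelihood test. That test called 0.216% of the 8793 genes. An unadjusted p under 0.05 was reached by 3 of the 10 (Alox15, Ptafr and Alox5ap, all higher), beside 8.83% of all genes tested. Alox15 entered that count and the next only because its Ptgs-deficient counts carried it past the filter, so that its direction was fixed. Levels did not overlap between groups for 5 of the 10 (Ltc4s, Pla2g15, Alox15, Ptafr and Ephx1), all higher in the Ptgs-deficient group, where 970 of the 8793 genes tested (11%) were higher without overlap. None was lower without overlap, beside 8.01% of all genes. Alox5, Ltc4s, Alox15 and Ephx1 could not be, because each had a Ptgs-competent library with 0 counts. Ltc4s, Alox15 and Ephx1 could therefore separate only upward. Ltc4s and Ephx1 also needed their Ptgs-deficient libraries to pass the filter. The median log2 fold change was 0.98, also with Alox15 set at its lower bound, against 0.02 over all genes tested. The edgeR likelihood ratio test, the DESeq2 Wald test, limma voom and limma voom with sample quality weights, which called 2.74%, 3.73%, 1.09% and 1.40% of all genes, likewise called 0 of the 10, and put 3, 2, 3 and 4 of them at an unadjusted p under 0.05, beside 833, 996, 1192 and 1103 of all 8793 genes. DESeq2 gave no p for Ltc4s, so its counts cover the other 9.

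**Figure D1:**
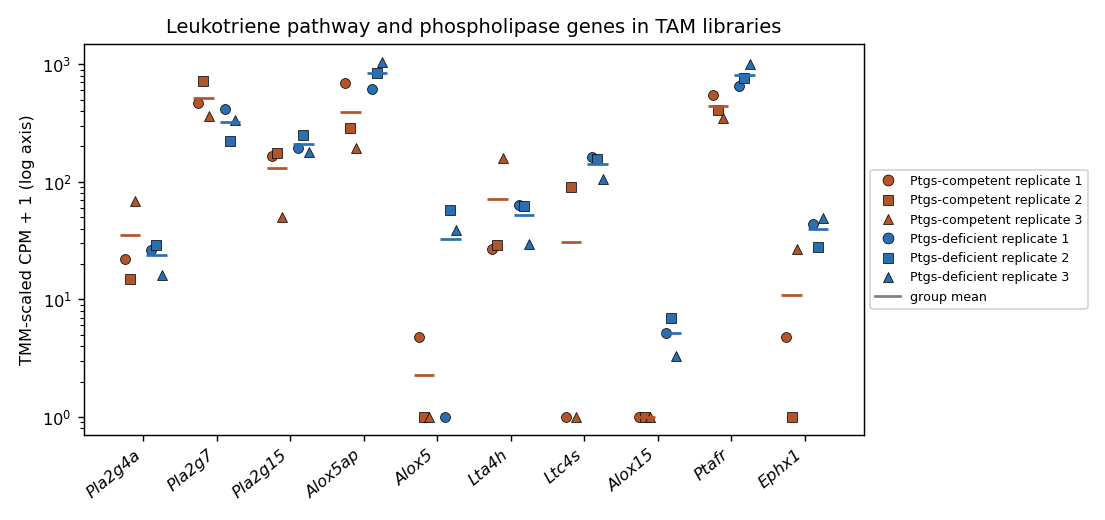
TMM-scaled CPM plus 1, on a log axis, of each gene in the 3 Ptgs-competent (brown) and 3 Ptgs-deficient (blue) libraries, with marker shape giving the replicate and a horizontal line the group mean. Points at the bottom of the axis are libraries with 0 counts, which occur for Alox5, Ltc4s, Alox15 and Ephx1.

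FLAP, the protein that presents arachidonic acid to 5-lipoxygenase, was encoded by one of the most abundant transcripts of the set. Alox5ap (ENSMUSG00000060063, GRCm38 chromosome 5, 149264767 to 149288153, plus strand) was at 697, 287 and 193 CPM in Ptgs-competent TAMs, against 609.8, 844 and 1047 CPM in Ptgs-deficient TAMs. The groups overlapped through Ptgs-competent replicate 1 alone, which lay above Ptgs-deficient replicate 1. The mean was 2.12-fold higher in the Ptgs-deficient group (834 ± 219 against 392 ± 268 CPM, SD, n = 3 each). This is 1.09 ± 0.47 (SE) on the log2 scale, with a 95% interval from 0.03 to 2.14 and an edgeR FDR of 0.533. It grew to 1.80 without Ptgs-competent replicate 1, with an FDR of 0.143, and shrank to 0.80 without Ptgs-competent replicate 3. The reference annotation places an antisense gene, Gm19719, across part of Alox5ap. Gm19719 is not a row of the count table, and the strand setting of the counting was not stated.

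5-lipoxygenase itself showed a different picture, with reads in only some libraries of each group. Alox5 (ENSMUSG00000025701, chromosome 6, 116410077 to 116461178, minus strand) had 24, 0 and 0 counts in Ptgs-competent TAMs, against 0, 478 and 182 in Ptgs-deficient TAMs. In CPM these were 3.83, 0 and 0 against 0, 56.9 and 37.7. Ptgs-deficient replicates 2 and 3 stood far above the other 4 libraries, and Ptgs-deficient replicate 1 shared the absence of reads with Ptgs-competent replicates 2 and 3. These same libraries had 17.2%, 21.6% and 19.6% of all genes tested at 0. Ptgs-competent replicate 1 and Ptgs-deficient replicates 2 and 3, with Alox5 reads, had 6.62%, 3.4% and 7.24%. The part of this in the Alox5 values was not tested. A count of 0 allows up to 0.547 CPM in Ptgs-deficient replicate 1, 0.492 in Ptgs-competent replicate 2 and 0.647 in Ptgs-competent replicate 3, a limit that covers counting error only. The log2 fold change of 4.60 ± 2.89 (SE) had a 95% interval from -1.83 to 11.02 (edgeR FDR 0.877), so neither a large rise nor a moderate fall was outside it. Without Ptgs-competent replicate 1, the only one of its group with reads, the fitted change was 10.54, a value that depends on the prior count, with an unadjusted p of 0.0380 and an edgeR FDR of 0.366. In that fit Alox5 passed the filter only through its Ptgs-deficient counts, so that its direction was fixed. The Ptgs-deficient mean of 31.5 CPM dropped to 18.8 CPM without replicate 2. Alox5 was thus low beside its partner FLAP in every library, at no more than 0.0674 Alox5 reads for each Alox5ap read. Counts from the 3′ end carry no factor of transcript length, but other differences in capture and counting between genes were not measured. Ratios and orders between genes therefore describe reads only.

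Neutrophils also carry 5-lipoxygenase. Of the 10 neutrophil markers checked, Ly6g, Mpo and Elane were at 0 in every library. The summed level of the list was 516, 675 and 614 CPM in Ptgs-competent TAMs, against 503, 419 and 392 CPM in Ptgs-deficient TAMs. It was lower in each Ptgs-deficient library, also in replicate 1, which had 0 counts of Alox5. Within the list Retnlg went the other way, at 20.2, 59.9 and 16.2 CPM against 123, 114 and 180.2 CPM. The part of neutrophil RNA in the Alox5 values was not tested.

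Both enzymes that draw on leukotriene A4 were transcribed. Lta4h, the hydrolase that makes leukotriene B4 (ENSMUSG00000015889, chromosome 10, 93453411 to 93484875, plus strand), was at 25.8, 27.9 and 159 CPM in Ptgs-competent TAMs, against 62.2, 61.7 and 28.6 CPM in Ptgs-deficient TAMs. Ptgs-competent replicate 3, the library with the lowest macrophage marker sum, held the highest value by far. The log2 fold change of -0.48 ± 0.86 (SE; 95% interval -2.39 to 1.44, edgeR FDR 0.9995) turned to 0.97 without that library, where the Ptgs-competent mean went from 70.8 to 26.9 CPM. Without it, every Ptgs-deficient library was above both remaining Ptgs-competent ones.

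Ltc4s, the synthase of the cysteinyl leukotriene branch (ENSMUSG00000020377, chromosome 11, 50236461 to 50238616, minus strand), was abundant in every Ptgs-deficient library and in a single Ptgs-competent one. Its counts were 0, 545 and 0 in Ptgs-competent TAMs, against 888, 1291 and 504 in Ptgs-deficient TAMs. The levels were 0, 89.4 and 0 CPM against 162, 154 and 104 CPM, so the groups did not overlap, but Ptgs-competent replicate 2 came close to the lowest Ptgs-deficient library. The mean was 4.70-fold higher (140.0 ± 31.2 against 29.8 ± 51.6 CPM, SD, n = 3 each). On the log2 scale the fitted change was 2.23 ± 1.78 (SE), with a 95% interval from -1.73 to 6.19 and an edgeR FDR of 0.992. That one library decided the outcome. Without Ptgs-competent replicate 2, Ltc4s was at least 249-fold higher in the Ptgs-deficient group, computed against a floor of 3 counts per library, and was called at an edgeR FDR of 0.0127. No other alternative that gave an FDR brought it to the threshold, although the unadjusted p was 0.00259 without the filter on low counts, 0.00237 with the replicate block, 0.0040 under voom and 0.0110 under voom with quality weights.

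In the libraries with Ltc4s reads, the count table held 3.21 Ltc4s reads per Lta4h read in Ptgs-competent replicate 2 and 2.60, 2.49 and 3.65 in the Ptgs-deficient libraries. The ratio was 0 in Ptgs-competent replicates 1 and 3. An antisense gene, Gm26542, overlaps Ltc4s in the annotation and had 0 counts in every library.

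Mast cells and eosinophils are known for Ltc4s. The mast cell and basophil list was at 80.8, 96.8 and 79.3 CPM in Ptgs-competent TAMs, against 48.5, 36.2 and 13.7 CPM in Ptgs-deficient TAMs, with Kit, Fcer1a, Ms4a2, Mcpt8 and Tpsab1 at 0 throughout. Hdc, the histamine-forming enzyme, made up most of the sum except in Ptgs-deficient replicate 1, the library with the most Ltc4s, where it was at 1.09 CPM and the mast cell proteases Cpa3 and Cma1 were at 27.9 and 19.3 CPM. Cpa3 had 0 counts in the other 5 libraries, and Cma1 was at 9.56 CPM in Ptgs-competent replicate 1 and at most 0.119 CPM elsewhere. The eosinophil list was at 12.9, 14.9 and 0 CPM against 51.8, 2.74 and 6.62 CPM, with Epx, Prg2 and Il5ra at 0 throughout. Within it Siglecf was at 0, 14.9 and 0 CPM against 16.1, 0 and 6.41 CPM. Its only Ptgs-competent library with reads was thus replicate 2, as for Ltc4s. Ccr3 was at 12.9, 0 and 0 CPM against 33.6, 2.74 and 0.207 CPM. These sums of chosen markers set no limit on the Ltc4s RNA that such cells could bring. Their part in the Ltc4s values was not tested.

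The promoter windows of 5 of the genes are shown because they belong to the transcripts that were at 0 in some libraries (Ltc4s, Alox5 and Ephx1), to the receptor with the narrowest interval (Ptafr), and to the gene with a lower fitted level in every fit (Pla2g7). They come from RefSeq on GRCm38.p6, where 8 of the 10 genes had an entry (not Alox5ap or Alox15), and run from 250 bases before to 50 bases after the transcript start, 5′ to 3′ on the gene's strand. Capitals mark matches on either strand to 8 searched motifs: the cyclic AMP response element (TGACGTCA) and its core (TGACG), the STAT6 site, the interferon-stimulated response element, the PU.1 core (GAGGAA), the AP-1 site (TGANTCA), the TATA box (TATAAA) and the GC box (GGGCGG). Among them only that core lies within another, the full cyclic AMP element.
Ltc4s, chr11:50238483-50238782, minus strand: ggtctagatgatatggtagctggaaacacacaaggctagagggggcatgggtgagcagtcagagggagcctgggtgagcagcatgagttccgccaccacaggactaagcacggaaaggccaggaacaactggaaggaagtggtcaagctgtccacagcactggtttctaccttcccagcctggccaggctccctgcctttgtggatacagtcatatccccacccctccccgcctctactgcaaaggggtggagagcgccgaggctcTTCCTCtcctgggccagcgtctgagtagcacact
Alox5, chr6:116461129-116461428, minus strand: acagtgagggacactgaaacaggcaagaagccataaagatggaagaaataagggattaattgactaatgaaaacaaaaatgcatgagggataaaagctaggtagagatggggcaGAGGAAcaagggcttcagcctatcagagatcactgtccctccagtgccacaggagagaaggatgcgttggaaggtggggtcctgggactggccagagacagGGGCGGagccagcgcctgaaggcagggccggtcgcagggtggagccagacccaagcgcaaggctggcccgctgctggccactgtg
Ephx1, chr1:181017520-181017819, minus strand: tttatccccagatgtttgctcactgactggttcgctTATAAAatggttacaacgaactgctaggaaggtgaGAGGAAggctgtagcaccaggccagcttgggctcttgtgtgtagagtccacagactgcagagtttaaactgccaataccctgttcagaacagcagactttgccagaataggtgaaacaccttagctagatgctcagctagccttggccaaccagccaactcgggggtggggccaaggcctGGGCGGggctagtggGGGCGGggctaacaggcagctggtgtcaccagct
Ptafr, chr4:132563817-132564116, plus strand: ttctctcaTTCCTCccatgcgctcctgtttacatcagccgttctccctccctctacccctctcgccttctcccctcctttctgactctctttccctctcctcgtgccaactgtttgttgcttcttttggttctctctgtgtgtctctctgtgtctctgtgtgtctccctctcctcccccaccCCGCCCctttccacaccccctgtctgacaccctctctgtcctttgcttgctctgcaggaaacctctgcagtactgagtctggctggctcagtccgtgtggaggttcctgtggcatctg
Pla2g7, chr17:43568201-43568500, plus strand: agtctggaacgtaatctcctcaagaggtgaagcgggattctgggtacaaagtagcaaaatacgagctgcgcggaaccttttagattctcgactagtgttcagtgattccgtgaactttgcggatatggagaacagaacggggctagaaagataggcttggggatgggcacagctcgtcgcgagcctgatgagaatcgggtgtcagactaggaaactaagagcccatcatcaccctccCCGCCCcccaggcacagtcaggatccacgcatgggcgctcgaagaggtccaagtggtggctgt

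The PU.1 core, named for a factor that shapes the myeloid lineage, and the GC box each matched in 5 of the 8 genes. The PU.1 core lay just after the transcript start in Ltc4s and upstream of it in Alox5, Ephx1, Ptafr and Lta4h, and 28.3% of all 32851 promoters in the table held it. A GC box, present in 35.7% of all promoters, was found in Alox5, Ephx1, Ptafr, Pla2g15 and Pla2g7. No window of the 8 genes held the cyclic AMP element (1.79% of all promoters), its core (20.8%), the STAT6 site (6.95%), the interferon-stimulated element (3.44%) or the AP-1 site (7.81%). A TATA box (13.6% of all promoters) was found in Ephx1 and in the second of the Pla2g4a windows, far from the start in both.

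Alox15, the lipoxygenase that oxygenates arachidonic acid at other carbons and is known from resident macrophages of the mouse peritoneum (ENSMUSG00000018924, chromosome 11, 70344152 to 70352031, minus strand), had 0 counts in all Ptgs-competent libraries, against 23, 50 and 11 in Ptgs-deficient TAMs. The levels of 4.20, 5.95 and 2.28 CPM all lay above what a count of 0 allows in the Ptgs-competent libraries (0.478, 0.492 and 0.647 CPM), a limit that covers counting error only. In those libraries 6.62%, 21.6% and 19.6% of all genes tested were at 0. Alox15 was at least 7.68-fold higher, against 3 counts per library, with an unadjusted p of 0.0215 and an edgeR FDR of 0.376. It remained the rarest transcript of the set and passed the filter only through its Ptgs-deficient values, so that a tested Alox15 had to be higher there.

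Among all genes tested, the 3 whose log2 CPM followed Alox15 most closely across the 6 libraries were Pkib, an inhibitor of the cyclic AMP-dependent protein kinase, Phf11a and Wdr44 (Pearson r of 0.998, 0.997 and 0.997). All 3 had 0 counts in the Ptgs-competent group, and r was above 0.95 for 99 genes. The libraries that held Alox15 also held 2 transcripts known from resident serous cavity macrophages. The list of 5 such markers summed to 191 to 336 CPM in Ptgs-deficient TAMs, all of it from Cd5l and Timd4, and to between 0 and 9.48 CPM in the Ptgs-competent group. Selp, the marker behind most of that 9.48 CPM, went the other way, with 41 counts in Ptgs-competent replicate 3 and 0 in the other libraries. Gata6 and Prg4, the markers that define peritoneal macrophages, were at 0 in every library. The part of such cells in the Alox15 level was not tested.

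**Figure D2:**
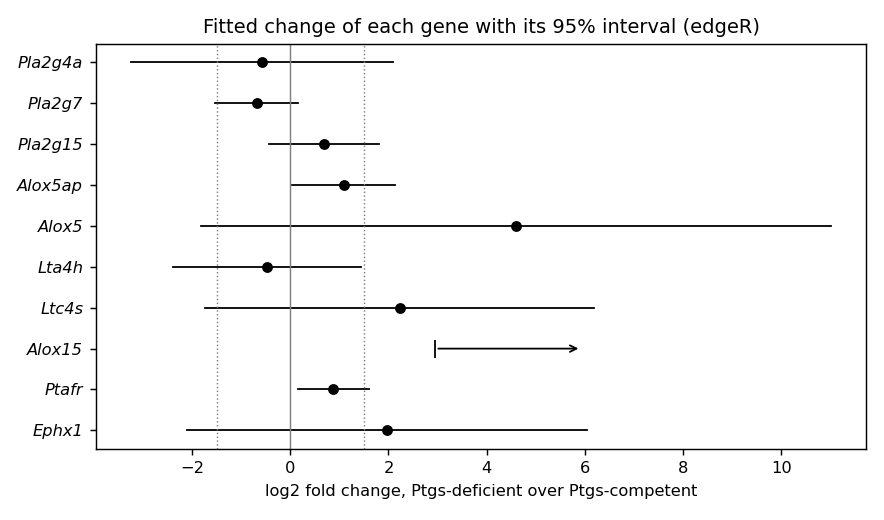
Log2 fold change (Ptgs-deficient over Ptgs-competent) of each gene from the edgeR fit to 6 libraries, with horizontal lines for the 95% interval and dotted lines at the fold threshold of 1.5. The intervals of Ptafr (0.16 to 1.60) and Alox5ap (0.03 to 2.14) lie above 0, and the arrow for Alox15 starts at its lower bound of 2.94.

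Of the phospholipases, Pla2g4a, which supplies arachidonic acid for both prostaglandins and leukotrienes (ENSMUSG00000056220, chromosome 1, 149829618 to 149961290, minus strand), was at 20.9, 13.8 and 68.1 CPM in Ptgs-competent TAMs, against 25.4, 28.2 and 15.1 CPM in Ptgs-deficient TAMs. Its pattern resembled that of Lta4h, with the highest value in Ptgs-competent replicate 3. The log2 fold change of -0.58 ± 1.20 (SE; 95% interval -3.25 to 2.09, edgeR FDR 0.9995) turned to 0.45 without that library, and the Ptgs-competent mean went from 34.3 to 17.3 CPM. No direction can therefore be given.

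Pla2g7, the secreted hydrolase of platelet-activating factor (ENSMUSG00000023913, chromosome 17, 43568098 to 43612201, plus strand), was at 466, 722 and 364 CPM in Ptgs-competent TAMs, against 412, 222 and 331 CPM in Ptgs-deficient TAMs. The highest value was Ptgs-competent replicate 2 and the lowest Ptgs-deficient replicate 2, and the groups overlapped between them. The fitted log2 change was -0.68 ± 0.38 (SE), with a 95% interval from -1.53 to 0.16 and an edgeR FDR of 0.781. It stayed negative in all 17 alternatives, between -0.87 and -0.37. This was the only gene of the set with a lower fitted level in every fit.

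Pla2g15, a phospholipase of the lysosome (ENSMUSG00000031903, chromosome 8, 106150399 to 106164715, plus strand), was at 164, 173 and 48.9 CPM in Ptgs-competent TAMs, against 192, 251 and 179.6 CPM in Ptgs-deficient TAMs. The groups were apart by a small step, from 173 to 179.6 CPM, with Ptgs-competent replicate 3 far below the rest. On the log2 scale the change was 0.69 ± 0.50 (SE), with a 95% interval from -0.43 to 1.80 and an edgeR FDR of 0.957, and it fell to 0.35 without Ptgs-competent replicate 3.

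Ptafr, the receptor for platelet-activating factor (ENSMUSG00000056529, chromosome 4, 132564067 to 132582683, plus strand), had the smallest standard error of the fitted change in the set. Values were 547, 410.3 and 349 CPM in Ptgs-competent TAMs, against 645, 767 and 993 CPM in Ptgs-deficient TAMs. Every Ptgs-deficient library lay above every Ptgs-competent one. The mean was 1.84-fold higher (801 ± 176 against 435 ± 101 CPM, SD, n = 3 each). On the log2 scale the difference was 0.88 ± 0.32 (SE), with a 95% interval from 0.16 to 1.60, an unadjusted p of 0.0218 and an edgeR FDR of 0.376. The change was between 0.70 and 1.08 with any library left out, and the FDR over all alternatives ranged from 0.124 to 0.809. Its size stayed below the fold threshold in all of them.

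Ephx1, the microsomal hydrolase that opens epoxides of foreign compounds and of some lipids (ENSMUSG00000038776, chromosome 1, 180976210 to 181020904, minus strand), had 24, 0 and 120 counts in Ptgs-competent TAMs, against 232, 224 and 231 in Ptgs-deficient TAMs. The levels were 3.83, 0 and 25.9 CPM against 42.3, 26.7 and 47.8 CPM, and only a narrow step separated the highest Ptgs-competent from the lowest Ptgs-deficient library. The log2 fold change of 1.98 ± 1.83 (SE) had a 95% interval from -2.10 to 6.05 (edgeR FDR 0.9995). Without Ptgs-competent replicate 3 the change was 4.36, and the Ptgs-competent mean went from 9.90 to 1.91 CPM.

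The order of the mean levels was as follows. In Ptgs-competent TAMs the mean was highest for Pla2g7 (517 CPM), Ptafr (435 CPM) and Alox5ap (392 CPM), and the values of these 3 genes overlapped. This order rested on single libraries. Without replicate 2 the means were 448 CPM for Ptafr, 444.9 CPM for Alox5ap and 414.9 CPM for Pla2g7, and without replicate 3 Alox5ap (492 CPM) was above Ptafr (478.5 CPM). In Ptgs-deficient TAMs Alox5ap (834 CPM) and Ptafr (801 CPM) overlapped each other and lay above Pla2g7 (322 CPM) in every library. Pla2g15 came next in both groups. In the Ptgs-deficient group Ltc4s followed at 140.0 CPM, with each of its values above those of Lta4h, Ephx1, Alox5 and Pla2g4a, and the ranges of Lta4h, Ephx1 and Alox5 overlapped. These orders describe reads only and were not tested.

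**Figure D3:**
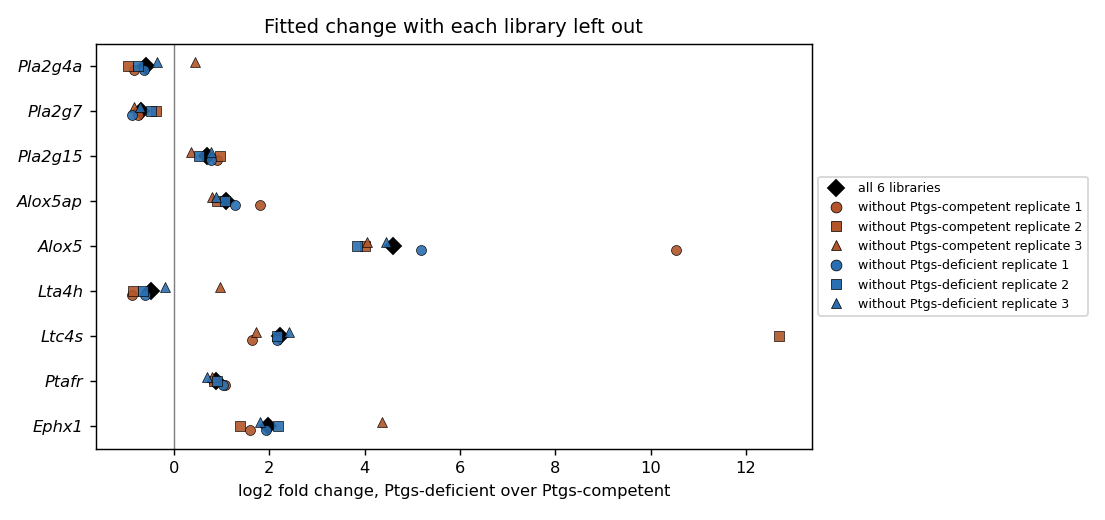
Log2 fold change of 9 of the genes (Alox15, with no Ptgs-competent reads, is left out) from all 6 libraries (black diamond) and with each library left out (colored by the group and shaped by the replicate left out). Lta4h and Pla2g4a cross 0 without Ptgs-competent replicate 3, and the isolated points of Ltc4s and Alox5 arise where the remaining Ptgs-competent libraries have 0 counts, so that their position depends on the prior count of the fit.

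Around these genes, 91 others of the same lipid pathways were compared in 6 lists, and 40 of them could be tested. The edgeR quasi-likelihood test called 0 of the 40, with 5 at an unadjusted p under 0.05, 4 of them higher and 1 lower, where 0.216% and 8.83% of all genes tested were called and reached that p. Their median log2 fold change was 0.30, with 25 fitted higher and 15 lower. Levels did not overlap for 5 higher and 2 lower genes of the 40, beside 11% and 8.01% of all genes tested. These counts include Ggt5, which passed the filter only through its Ptgs-deficient counts and so had to be higher. Pla2g16, with 0 counts in Ptgs-competent replicate 2, could not be lower without overlap. The shares were near those of all genes.

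The smallest p belonged to Cyp4f18, the cytochrome P450 that inactivates leukotriene B4 in mouse myeloid cells. It was at 84.5, 37.1 and 24.8 CPM in Ptgs-competent TAMs, against 293, 157 and 244 CPM in Ptgs-deficient TAMs, without overlap. The log2 fold change was 2.24 ± 0.55 (SE), with a 95% interval from 1.01 to 3.47 and an edgeR FDR of 0.174. The FDR was 0.0289 in the likelihood ratio test, 0.0117 in the DESeq2 Wald test and 0.0122 without the filter on low counts, each past the thresholds, and between 0.0986 and 0.587 with a library left out. Ggt5, which trims leukotriene C4 to leukotriene D4, had 0 counts in the Ptgs-competent and 33, 200 and 30 in the Ptgs-deficient libraries, or 6.02, 23.8 and 6.21 CPM, with replicate 2 well above the others and an edgeR FDR of 0.376. Both genes act beyond the synthases, on the leukotrienes they make.

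Of the receptors, Cysltr1, for the cysteinyl leukotrienes, was at 41.3, 20.4 and 0 CPM against 28.1, 83.0 and 91.9 CPM, with overlap. Ltb4r1, for leukotriene B4, was at 160.0, 101 and 98.3 CPM against 184, 124 and 144 CPM, a log2 fold change of 0.33 with a 95% interval from -0.61 to 1.27. Cysltr2 had 0 counts in every library. Cotl1, which binds 5-lipoxygenase, was the most abundant gene of the list at 2422 ± 918 against 2894 ± 252 CPM (SD, n = 3 each) and overlapped. The list of 19 genes had 11 tested, 8 fitted higher and 3 lower.

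The phospholipase A2 list had 6 tested genes of 25, and 15 of the 25 had 0 counts in every library. Pla2g16, a phospholipase of lipid droplets and organelles, was at 14.8, 0 and 17.0 CPM against 71.5, 116 and 128 CPM, without overlap (log2 fold change 3.31 ± 1.36 SE, edgeR FDR 0.472, or 0.0388 without the filter). Pnpla2, the triglyceride lipase ATGL, went the other way, at 76.2, 48.3 and 61.0 CPM against 20.1, 22.6 and 8.07 CPM (log2 fold change -1.87 ± 0.94 SE, edgeR FDR 0.695). The remaining 4 tested genes overlapped between groups. Of the untested ones, 4 had reads. Pla2g2d, a secreted phospholipase known from dendritic cells and macrophages, had 0 counts in the Ptgs-competent and 102, 72 and 6 in the Ptgs-deficient libraries. Pla2g6, a calcium-independent phospholipase, had 0, 0 and 2 against 74, 15 and 9 counts, Pla1a, a phosphatidylserine-specific enzyme, went the other way with 208, 0 and 128 against 0 in all 3, and Pla2r1 had 20 counts in Ptgs-deficient replicate 2 alone.

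In the platelet-activating factor list, with 10 tested genes of 13, 1 gene was higher and 1 lower without overlap, and 0 were called. Lpcat1, an acyltransferase that can complete the factor, was at 57.7, 160.4 and 91.2 CPM against 21.0, 14.4 and 44.1 CPM, lower without overlap (log2 fold change -1.96 ± 0.74 SE, edgeR FDR 0.391). Lpcat2, the inducible acyltransferase of macrophages, was at 51.8, 62.5 and 10.8 CPM against 60.0, 17.5 and 28.6 CPM and overlapped. Pafah1b1, a subunit of the intracellular hydrolase complex also known for binding dynein, was at 206, 155 and 117 CPM against 261, 301 and 337 CPM, higher without overlap (log2 fold change 0.91 ± 0.36 SE, edgeR FDR 0.454). The other 7 of these genes overlapped.

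The 3 remaining lists gave no gene at an unadjusted p under 0.05. Among lipoxygenases and receptors for pro-resolving lipids, 3 of 11 genes were tested, led by the chemerin and resolvin receptor Cmklr1 at 151 ± 98.2 against 204 ± 36.1 CPM (SD, n = 3 each). Its fitted log2 change of 0.43 became 1.09 without Ptgs-competent replicate 1 and 0.14 without Ptgs-competent replicate 3. Other lipoxygenases had no reads apart from 36 counts of Aloxe3 in Ptgs-competent replicate 2. Of the epoxide hydrolase and epoxygenase list, 1 of 10 genes was tested (Cyp4v3) and 8 had 0 counts throughout. Of the arachidonate supply list, 9 of 13 were tested, with log2 fold changes between -0.20 and 1.81, and Daglb alone did not overlap (40.1 ± 2.86 against 76.6 ± 21.7 CPM, SD, n = 3 each, edgeR FDR 0.937).

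**Figure D4:**
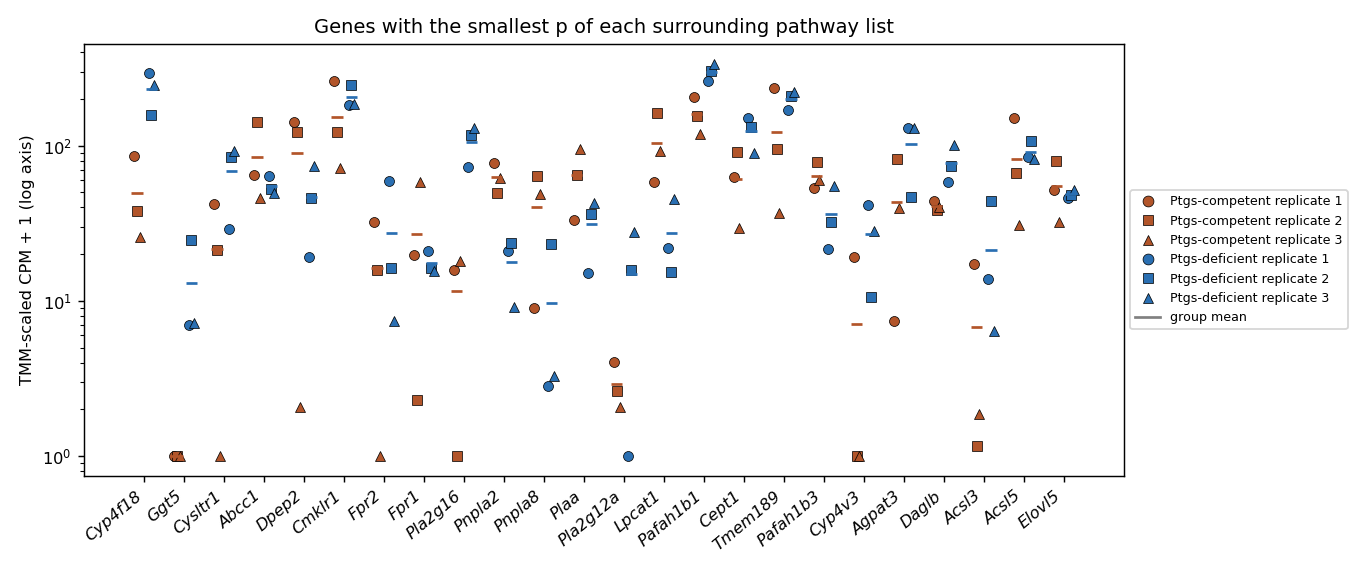
TMM-scaled CPM plus 1, on a log axis, of up to 5 genes with the smallest p from each of 6 surrounding lists, in the 3 Ptgs-competent (brown) and 3 Ptgs-deficient (blue) libraries, with a line for the group mean. Cyp4f18, Ggt5, Pla2g16, Pafah1b1 and Daglb lie higher in the Ptgs-deficient group without overlap, and Pnpla2 and Lpcat1 lie lower.

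Transcripts of other cells moved with the groups as well. The fibroblast and endothelium list was at 260 to 358 CPM in Ptgs-competent TAMs, against 55.5 to 76.3 CPM in Ptgs-deficient TAMs. The platelet list, carried by Pf4 and Ppbp, which macrophages can also express, was at 5810 to 11822 against 2618 to 3249 CPM, while Gp9 and Gp1bb were at 0 and Itga2b had reads in Ptgs-competent replicate 3 alone (16.4 CPM). The tumor cell list was at 49.2 to 99.6 against 52.6 to 92.0 CPM, with Pmel, Mlana, Dct, Tyrp1, Tyr and Sox10 at 0 in every library. Its detected members, which macrophages can also express, differed in opposite directions, with Mitf at 0.853 ± 0.973 against 24.4 ± 17.7 CPM, without overlap, and Gpnmb at 71.3 ± 26.4 against 41.7 ± 6.19 CPM, with overlap (SD, n = 3 each). Natural killer and T cell, B cell and dendritic cell lists reached at most 28.8, 26.8 and 14.5 CPM in any library. Their part in the lipid gene values was not tested.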

How the data were processed

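All 6 TAM libraries, 3 per tumor genotype, entered each comparison. The authors deposited raw read counts per gene, made by trimming 3′-end reads (QuantSeq FWD, no molecular identifiers stated) with BBDUK, fqtrim and cutadapt, aligning them to GRCm38 with STAR and counting Ensembl genes with featureCounts. Tool versions and the strand and multi-mapping settings are not given in the sources used here. Reads copied by PCR count more than once, so floors cover counting error only, and p-values measure the spread between pooled libraries. Positions come from GENCODE M21 on the same assembly.

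The counts were fitted with edgeR 4.0.16 (R 4.3.3) after filterByExpr (minimum count 10, total 15) and TMM scaling, across all genes tested, by a two-sided quasi-likelihood test with Benjamini-Hochberg adjustment. A call needed an FDR of at most 0.05 and an absolute log2 fold change of at least 1.5. A positive fold change means higher in Ptgs-deficient TAMs, SE is the fold change over the root of F, and levels are TMM-scaled CPM. A group with at most 3 counts in every library was set to 3 counts per library, giving a bound. Alternatives used limma 3.58.1, DESeq2 1.42.0, other scalings and filters, a replicate block and each library left out. The 10 genes, the 6 pathway lists and the cell type lists were chosen with earlier results of these data known. Named were the 10 genes, the edited genes, calls and up to 5 genes of smallest p per pathway list, and the 3 genes most like the member of smallest p. Ltb4r1, Cotl1, Pla2g2d, Pla2g6, Pla1a, Pla2r1, Lpcat2, Aloxe3 and cell markers were named after their values were seen. Adgre1 and Siglecf were found under the older names Emr1 and Siglec5.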

Additional observations from a re-analysis of the deposited data

How the results depend on the processing

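The count of called genes among the 10 was 0 in all alternatives but the fit without Ptgs-competent replicate 2, and ranged from 0 to 1 with a library left out. That call was Ltc4s, which without the library could only be higher. Over all genes the 19 calls stayed between 19 and 22 under the other scalings, the mean filter of 5 CPM and the robust fit, and went to 252 (no filter), 241 (likelihood ratio test), 328 (DESeq2), 96 (voom), 123 (voom with quality weights) and 77 (replicate block), or between 0 and 25 with a library left out (0 by edgeR without Ptgs-competent replicate 1, where 1231 genes had an unadjusted p under 0.05). Ltc4s ranged from 1.65 to 12.70 on the log2 scale with a library left out (the highest value depends on the prior count), Lta4h from -0.87 to 0.97 and Pla2g4a from -0.95 to 0.45. Lta4h was also higher under voom (0.25), voom with quality weights (0.27) and the replicate block (0.12), and Pla2g4a under voom (0.017). Under voom, voom with quality weights and the replicate block, Ltc4s went to 7.21, 7.47 and 7.81, Ephx1 to 4.17, 4.13 and 3.85, and Alox5 to 4.38, 5.70 and 8.18. The median log2 change of all genes was 0.34, 0.39 and 0.26 under voom, voom with quality weights and the replicate block, against 0.02. Of the pathway genes, 2 were called without the filter (Cyp4f18 and Pla2g16), 1 by the likelihood ratio test and 1 by DESeq2, against 0. Direction turned for Ptgs2 under voom with quality weights (0.040), for Fpr1 under voom, voom with quality weights and the replicate block (0.70, 0.56 and 0.40), and, with a library left out, for Fpr1 (-1.20 to 0.76), Fpr2 (-0.46 to 1.84), Acsl5 (-0.21 to 0.92) and Elovl5 (-0.39 to 0.22). The cause was not tested. Chosen after seeing the data, the count of genes higher without overlap was 5 of 10 and between 5 and 7 with a library left out, where between 14.2% and 20.1% of all genes were higher without overlap. It includes Ltc4s, Alox15 and Ephx1, which with all 6 libraries could separate only upward. Same-numbered libraries did not deviate together (r of -0.0488, -0.0224 and -0.0218), and 0 of the Ptgs-competent libraries correlated best with its own number, so the replicate block pairs numbers only. Alox15 had no value under the mean filter, which removed it. A count of 0 allows a level of up to 0.357 to 0.647 CPM, depending on the library.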
